A study of Mus musculus with 6 samples.

Results

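The genes described here are 34 genes of the endoplasmic reticulum (ER) that code for chaperones, for the unfolded protein response and for ER-associated degradation, out of 34745 genes in the count tables of an RNA-seq study of inguinal white adipose tissue (IngWAT). They were chosen by name, as genes whose symbol in the tables equals 1 of 34 listed symbols. The rule uses no measured value, but the list was drawn up with earlier results of these data known. They divide into 15 chaperones and folding enzymes, 10 sensors with their transcription factors and target genes, and 9 genes of ER-associated degradation. All 34 were found, and all 34 passed the filter on low counts that left 15400 genes for testing. The study compared 3 SAKI mice with 3 WT mice. Both groups were males on the C57BL/6 background that carried the LSL-Slc35d3 transgene, which is silent until Cre removes a stop sequence. SAKI mice also carried Cre under the adiponectin promoter, which is active in adipocytes, and WT mice lacked Cre. Mice of both groups were 6 weeks old when they were put on normal chow (NCD, 10 kcal% fat), stayed on it for 10 weeks, were 16 weeks old at the end, and were perfused with phosphate-buffered saline. Each library came from whole tissue of 1 mouse, so that fewer cells of a type and less RNA per cell cannot be told apart.

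Secreted and membrane proteins fold in the ER, where chaperones hold unfinished chains and enzymes form their disulfide bonds. When unfolded chains accumulate, the sensors IRE1, PERK and ATF6 switch on the unfolded protein response: IRE1 splices the mRNA of Xbp1, PERK slows translation and favours Atf4, and ATF6 is cut to release a transcription factor. These factors raise chaperones and the machinery that returns misfolded proteins to the cytosol for degradation. Adipocytes secrete adipokines such as adiponectin through this route, and Slc35d3, the gene overexpressed here, belongs to a family of nucleotide sugar transporters of the ER and Golgi. The data answer whether mRNA levels of this machinery differed between IngWAT of SAKI and WT mice.

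The response elements through which these genes are known to be induced were looked for in RefSeq promoter windows of GRCm38.p6, which run from 250 bases before to 50 bases after a transcription start. Windows were found for 30 of the 34 genes, and Hyou1, Manf, Atf6 and Derl1 had none. Both strands were searched for 4 motifs: the ER stress response element ERSE (CCAAT and CCACG with any 9 bases between them), its shorter form ERSE-II (ATTGG and CCACG with any 1 base between them), an XBP1 site (TGACGTGG) and the C/EBP-ATF response element CARE (TGATGNAAN), which is read by ATF4. ERSE was present in 8 of the 30 genes, against 0.137% of 27025 genes with windows of this length. Of these, 7 were among 13 chaperones and 1 among 8 degradation genes, and 0 of 9 sensors, factors and target genes held it. The chaperone matches below show the spaced boxes of ERSE, in capitals with 5 flanking bases, for the chaperone that the response is best known by, for a chaperone with lower values in SAKI mice and for a pair with smaller differences. They lie at chr2:34772020-34772048 for Hspa5, chr15:88819515-88819543 for Creld2, chr12:17266486-17266514 for Pdia6 and chr8:84847070-84847098 for Calr. Hspa5, Creld2 and Pdia6 are on the plus strand and Calr on the minus strand, and each is written 5′ to 3′ on the strand of its gene. In Creld2 and Calr the element reads in the opposite direction, so that it starts with CGTGG.
Hspa5: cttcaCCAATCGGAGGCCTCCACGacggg
Pdia6: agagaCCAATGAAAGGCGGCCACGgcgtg
Creld2: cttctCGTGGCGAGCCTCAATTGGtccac
Calr: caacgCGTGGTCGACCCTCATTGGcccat

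ERSE-II was present in Dnajb11 and Herpud1 and in 0.0444% of all genes with a window, and the XBP1 site in Vcp and in 0.714%. CARE was present in Asns, Chac1, Trib3 and Herpud1, and in 4.5% of all genes with a window. These genes are shown because they include those of lowest p among the factor targets and degradation genes and the member with higher values in SAKI mice. The windows are chr8:94386372-94386392 for ERSE-II of Herpud1, chr8:94386311-94386329 for its CARE, chr4:43000609-43000626 for Vcp, chr6:7693219-7693237 for Asns, chr2:119351043-119351061 for Chac1 and chr2:152344034-152344052 for Trib3. Herpud1 and Chac1 are on the plus strand, and Vcp, Asns and Trib3 on the minus strand. The matches in capitals do not overlap one another, and in Chac1, Trib3 and the CARE of Herpud1 the element reads in the opposite direction.
Herpud1 ERSE-II: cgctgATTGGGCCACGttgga
Herpud1 CARE: ggcggGTTGCATCAgcccg
Vcp: ccaatTGACGTGGcgtta
Asns: ccacaTGATGAAACttccc
Chac1: ctgccGTTGCATCActcct
Trib3: tcaggTTTACATCAgccgg
A match is a description of these letters and was not tested for binding or function in this tissue. Genes with ERSE had a median log2 fold change of -0.15 (7 of 8 below 0) and genes with CARE of -0.37 (3 of 4 below 0). The median was 0.01 for the genes with ERSE-II (1 of 2 below 0), and Vcp with the XBP1 site was at -0.51. The 16 genes with a window and none of the 4 motifs had a median of -0.09 (12 of 16 below 0) and a range from -0.90, for Xbp1, to 0.18. Differences between these sets were not tested.

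Library totals ranged from 15354161 to 18787036 counts. Slc35d3 was at 73.3, 82.1 and 74.4 CPM (counts scaled to the library total) in WT mice and 745, 793 and 770 CPM in SAKI mice, a 10.0-fold difference in the labelled direction (adjusted p = 0.000244, edgeR). Adipocyte markers were abundant in every library, with Adipoq between 1168 and 2006 CPM, and 0 of 14 were at 0. The WT libraries were not alike. On principal component 1, which held 47.9% of the variance, WT 2 lay at 24.4 beside the SAKI libraries (21.0 to 27.8), whereas WT 1 and WT 3 lay at -40.6 and -58.1. Mitochondrially encoded genes took 13.8% of the counts of WT 2 and 13.1 to 15.9% of those of SAKI mice, against 7.31% in WT 1 and 8.79% in WT 3. Results are therefore given with all 6 libraries and, where it matters, without WT 2.

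Across the 6 libraries, no ER gene of the 34 passed the test, and most had slightly lower values in SAKI than in WT mice. The log2 fold change of SAKI over WT was below 0 in 27 of 34 (79.4%), against 50.4% of all genes tested, with a median of -0.14 against -0.00. At an adjusted p under 0.05 in the quasi-likelihood test of edgeR, 0 members were called, where 5 of 15400 genes (0.0325%) were, namely Slc35d3, Gm28062, Zfp949, Golph3l and Akap2, of which only Slc35d3 falls under the naming rule and the others were named after their values were seen. The smallest adjusted p of a member was 0.188, for Asns. An unadjusted p under 0.05 was reached by 6 members with lower values (17.6%, against 9.99% of all genes), namely Hyou1, Manf, Xbp1, Asns, Chac1 and Vcp, and by 1 with higher values (2.94%, against 8.36%), namely Herpud1. The values of the 3 SAKI mice lay all below those of the 3 WT mice for 8 members (23.5%, against 12.4% of all genes) and all above them for 1 (2.94%, against 13%), where the groups did not overlap in 25.4% of all genes. The 8 were Pdia6, P4hb, Hyou1, Xbp1, Asns, Derl1, Os9 and Vcp, and the 1 was Herpud1. DESeq2 called 2 members lower, Xbp1 (adjusted p = 0.0438) and Asns (adjusted p = 0.0498), where 2.71% of all genes were called lower, and limma-voom and limma on FPKM values called 0. The plot of fold changes shows intervals that reach 0 in 27 members.

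**Figure D1:**
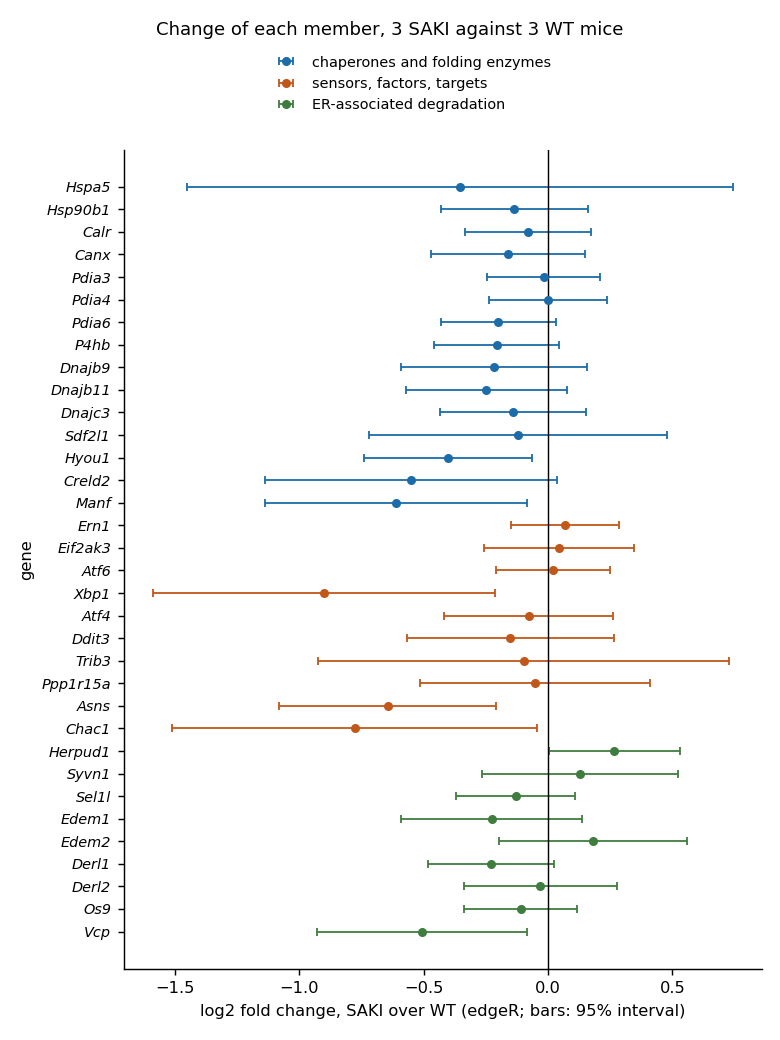
Log2 fold change of SAKI over WT for each of the 34 genes (points, edgeR) with its 95% interval (bars), coloured by role. Most points lie left of 0, from -0.90 for Xbp1 to 0.27 for Herpud1, and the intervals of Hyou1, Manf, Xbp1, Asns, Chac1, Vcp and Herpud1 leave out 0 without adjustment for the number of genes tested.

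Levels per gene length, as FPKM (counts scaled to gene length and library total), spanned a wide range. The lectin chaperone Calr was highest, at 107 ± 6.27 FPKM in WT and 103 ± 5.83 FPKM in SAKI mice (mean ± SD, n = 3 mice each, as for the values that follow). Behind it came Hsp90b1, P4hb and Pdia3, a Hsp90-type chaperone and a pair of disulfide isomerases, with WT means between 80.7 and 89.5 FPKM. Among the factors Xbp1 (76.5 ± 30.02 FPKM) and Atf4 (74.9 ± 11.6 FPKM) stood at like levels in WT mice, far above the sensors that act before them, Atf6 at 8.69 ± 0.34, Eif2ak3 at 5.94 ± 1.22 and Ern1 at 4.004 ± 0.05 FPKM. Trib3 was lowest at 1.44 ± 0.56 FPKM in WT and 1.36 ± 0.33 FPKM in SAKI mice. In the order of WT means, 24 of the 33 pairs of neighbours differed by less than the larger of their WT SDs. Only the broad order can therefore be read in WT mice, and the order in SAKI mice was not checked in this way. Xbp1 held place 5 among the members in WT mice and place 10 in SAKI mice, at 41.9 ± 5.77 FPKM. Its WT mean rests on WT 3 (111 FPKM, against 64.1 in WT 1 and 54.7 in WT 2). In SAKI mice Hspa5 (42.7 FPKM) and Pdia6 (40.5 FPKM) lay within its SD. These places are therefore not exact, and a shift in place was not tested.

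**Figure D2:**
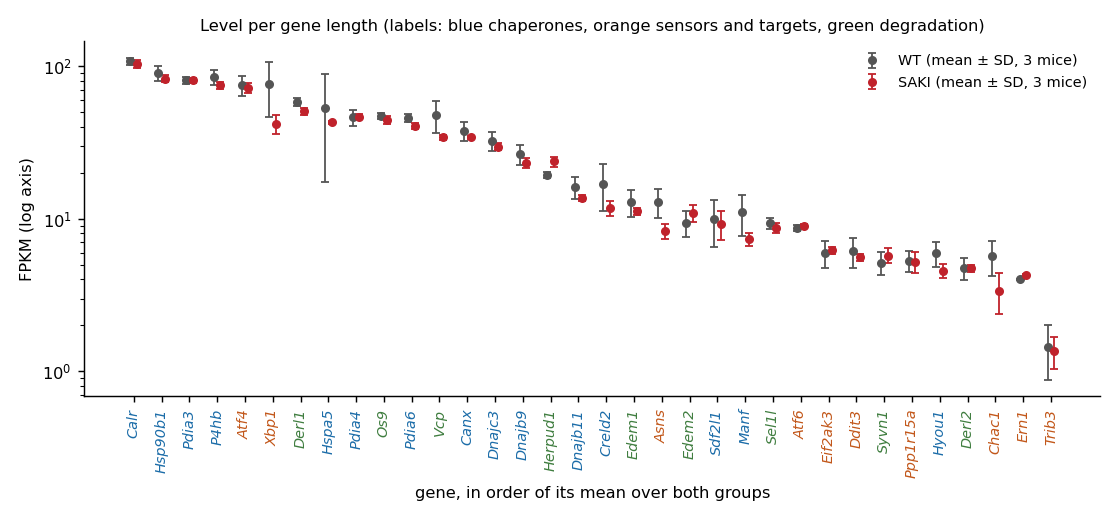
Mean FPKM (log axis) of each gene in WT and SAKI mice, with bars for the SD over 3 mice, in order of the mean over both groups. Levels run from 107 FPKM for Calr to about 1.4 FPKM for Trib3, and the bars of Hspa5 and Xbp1 are wide in WT mice only.

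Of the 15 chaperones and folding enzymes, 14 had a log2 fold change below 0, with a median of -0.20 and a range from -0.61 to 0.00. None passed the test. The median was -0.25 without WT 2 and -0.08 without WT 3. Hspa5 codes for BiP, the Hsp70 chaperone that also holds the sensors inactive. It was at 303, 155 and 673 CPM in WT mice 1, 2 and 3 and at 297, 291 and 296 CPM in SAKI mice 1, 2 and 3. The SAKI mice lay within 1.02-fold of one another and between the WT values, which spanned 4.33-fold. Its log2 fold change of -0.35 ± 0.47 (SE) had a 95% interval from -1.45 to 0.75 (adjusted p = 0.707, edgeR), and without WT 3 the value was 0.36.

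Manf is a secreted protein of the ER that is induced by stress. Its values were 56.0, 38.1 and 72.1 CPM in WT and 34.8, 34.5 and 39.4 CPM in SAKI mice, and the groups overlapped only through WT 2 and SAKI 3. The log2 fold change was -0.61 ± 0.22 (SE; adjusted p = 0.236, edgeR), the lowest of the chaperone group with all 6 libraries. Without WT 3 it was -0.38, and that of Creld2 was then lower at -0.42. Of its exon bases 4.14% are shared with Dcaf1 on the opposite strand, and reads there cannot be told apart since the strand setting of the counting is not given in the sources used here. Creld2, a disulfide isomerase-like protein of the ER, was at 27.7, 14.8 and 27.3 CPM in WT and 15.4, 14.6 and 17.6 CPM in SAKI mice. WT 2 lay within the SAKI values and the other WT mice above them, with a log2 fold change of -0.55 ± 0.25 (SE; adjusted p = 0.290, edgeR). Hyou1, the large Hsp70-related exchange factor of BiP, was at 79.8, 59.3 and 75.0 CPM in WT and 56.7, 47.9 and 57.3 CPM in SAKI mice. These groups did not overlap, and WT 2 was again nearest to the SAKI mice. The log2 fold change of Hyou1 was -0.40 ± 0.14 (SE), a fold of 0.756, with a 95% interval from -0.74 to -0.06 (adjusted p = 0.228, edgeR).

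Of the disulfide isomerases, Pdia6 and P4hb had separate groups, with 205, 197 and 218 CPM against 175, 184 and 181 CPM for Pdia6 and 346, 311 and 313 CPM against 288, 264 and 289 CPM for P4hb. Their log2 fold changes were both small, -0.20 and -0.21, with 95% intervals that end at 0.03 and 0.05. Pdia3, which acts on glycoproteins held by calreticulin and calnexin, was the most even member of the group, with all 6 mice between 311 and 324 CPM. Its log2 fold change was -0.02 with a 95% interval from -0.25 to 0.21, and that of Pdia4 was 0.00 with an interval from -0.24 to 0.24. Intervals of this width leave room for a small difference in either direction.

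For the remaining members of the group the WT and SAKI values overlapped. The lectin chaperones Calr and Canx, which hold glycoproteins, had log2 fold changes of -0.08 and -0.16, and Hsp90b1 of -0.13. The J-domain co-chaperones of BiP, Dnajb9, Dnajb11 and Dnajc3, were at -0.22, -0.25 and -0.14. Sdf2l1, a partner of the ER J-domain proteins and the least abundant of these per gene length (9.91 FPKM in WT mice), had a log2 fold change of -0.12 with a 95% interval from -0.72 to 0.48. Adjusted p-values from edgeR for these 7 genes lay between 0.370 and 0.822.

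The sensors themselves were nearly level between the groups. Ern1, which codes for IRE1, was at 40.9, 43.2 and 44.8 CPM in WT and 45.6, 44.8 and 44.9 CPM in SAKI mice. Eif2ak3, which codes for PERK, was at 55.6, 43.9 and 42.5 CPM against 47.5, 48.8 and 50.4 CPM, and Atf6 at 76.3, 87.2 and 82.2 CPM against 83.6, 85.5 and 80.4 CPM. The groups overlapped for each. Their log2 fold changes were 0.07, 0.05 and 0.02, with 95% intervals from -0.15 to 0.29, from -0.26 to 0.35 and from -0.21 to 0.25. These values concern total mRNA, and the counts per gene hold neither Xbp1 splicing nor the phosphorylation or cleavage of the sensors.

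Xbp1 is the factor that IRE1 activates by splicing. It was at 275, 253 and 522 CPM in WT mice 1, 2 and 3 and at 221, 181 and 162 CPM in SAKI mice 1, 2 and 3. All SAKI mice were below all WT mice, and WT 3 stood apart at 2.06-fold the level of WT 2. The log2 fold change was -0.90 ± 0.29 (SE), a fold of 0.536, with a 95% interval from -1.59 to -0.21 (adjusted p = 0.210, edgeR). It was the lowest value of the 34 genes with all 6 libraries, but without WT 3 Xbp1 was at -0.50, with Chac1 at -0.52 and Asns at -0.51 below it, and without SAKI 1 Chac1 was also lower (-1.06 against -1.04). Atf4, the factor of the PERK branch, was at 122, 113 and 156 CPM in WT and 123, 117 and 131 CPM in SAKI mice. Its groups overlapped fully, with a log2 fold change of -0.08 and a 95% interval from -0.42 to 0.26.

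Among targets of ATF4, Asns, asparagine synthetase, was at 50.9, 37.2 and 57.5 CPM in WT and 33.5, 33.2 and 26.5 CPM in SAKI mice. The groups did not overlap, and the log2 fold change was -0.64 ± 0.18 (SE) with a 95% interval from -1.08 to -0.21 (adjusted p = 0.188, edgeR). Chac1, which breaks down glutathione, was at 7.18, 8.56 and 12.6 CPM in WT and 7.37, 5.30 and 3.88 CPM in SAKI mice, with a log2 fold change of -0.78 ± 0.31 (SE; adjusted p = 0.258, edgeR). Its groups overlapped through WT 1 and SAKI 1, and its counts were low, between 75 and 192 per library. Ddit3 (CHOP, a factor tied to cell death under lasting stress), Trib3 (a pseudokinase that restrains this branch) and Ppp1r15a (GADD34, which restores translation) had overlapping groups. Their log2 fold changes were -0.15, -0.10 and -0.05, with 95% intervals from -0.57 to 0.27, from -0.92 to 0.73 and from -0.51 to 0.41. The 10 sensors, factors and targets together had a median of -0.09, with 7 below 0. An unadjusted p under 0.05 was reached by 3 of the 10, all lower, where 18.4% of all genes reached it in either direction and 9.99% with lower values. The median was -0.15 without SAKI 1, -0.06 without SAKI 3 and -0.05 without WT 3, and the differences between these genes were not tested.

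**Figure D3:**
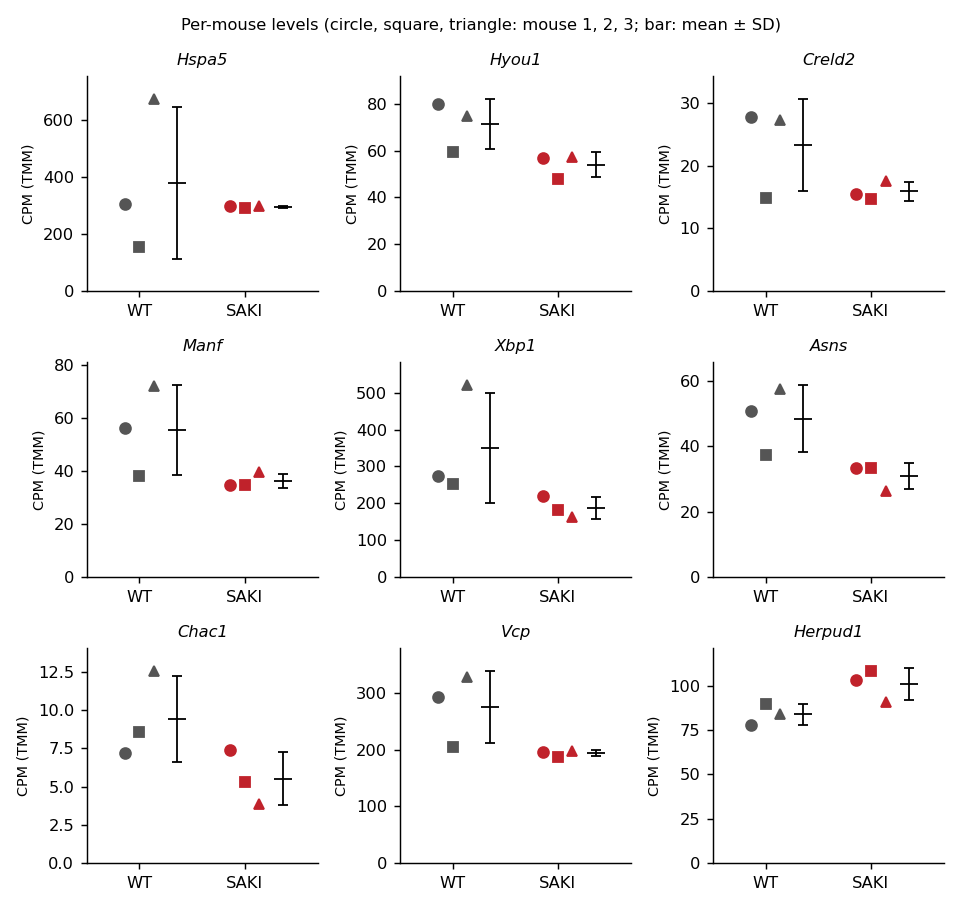
CPM in each mouse (circle, square and triangle for mouse 1, 2 and 3) with the mean ± SD of 3 mice, for Hspa5 and 8 genes of low p or large difference, on axes that start at 0. The square of WT mouse 2 lies nearest to the SAKI points in Hyou1, Creld2, Manf, Xbp1, Asns and Vcp, and the triangle of WT mouse 3 is highest in Hspa5, Manf, Xbp1, Asns, Chac1 and Vcp.

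Among the 9 genes of ER-associated degradation, 6 had a log2 fold change below 0, with a median of -0.11 (-0.17 without SAKI 2) and a range from -0.51 to 0.27. Vcp codes for the ATPase that pulls ubiquitinated proteins out of the ER membrane, and serves other cytosolic processes too. It was at 293, 204 and 329 CPM in WT and 196, 187 and 198 CPM in SAKI mice. The SAKI values were close together and below all WT values, of which WT 2 was nearest. The log2 fold change was -0.51 ± 0.18 (SE), a fold of 0.704, with a 95% interval from -0.93 to -0.08 (adjusted p = 0.228, edgeR). Derl1, a membrane channel component, was at 176, 177 and 202 CPM against 162, 150 and 162 CPM, and Os9, a lectin that selects misfolded glycoproteins, at 191, 194 and 190 CPM against 171, 188 and 175 CPM. Both had separate groups with log2 fold changes of -0.23 and -0.11.

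Herpud1, a membrane organiser of the degradation complex, had higher values in SAKI mice. It was at 78.0, 89.9 and 83.7 CPM in WT and 103, 108 and 91.0 CPM in SAKI mice. The groups were separate by a narrow gap between WT 2 and SAKI 3. The log2 fold change was 0.27 ± 0.11 (SE), a fold of 1.20, with a 95% interval from 0.00 to 0.53 (adjusted p = 0.270, edgeR). Its unadjusted p from edgeR was 0.0484 in this fit, 0.0588 with RLE scaling and 0.0362 with upper-quartile scaling. With DESeq2 the unadjusted p was 0.0719. In the fit without SAKI 1, 0 members had separate groups with higher values in SAKI mice. Syvn1, the ubiquitin ligase HRD1, and its partner Sel1l had log2 fold changes of 0.13 and -0.13. The mannosidase-like proteins Edem1 and Edem2, which mark glycoproteins for removal, were at -0.23 and 0.18, and Derl2 at -0.03. These 5 genes had overlapping groups, and their 95% intervals all included 0.

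**Figure D4:**
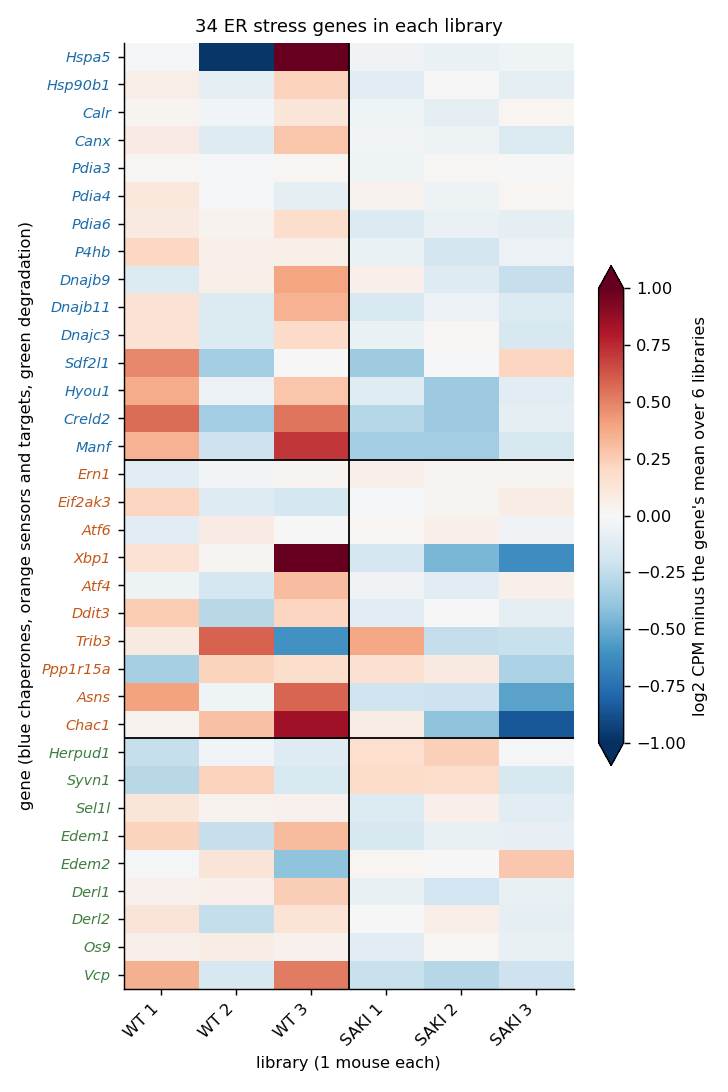
Log2 CPM of each gene in each library minus the gene's mean over the 6 libraries (colour scale cut at -1 and 1), in the order chaperones, sensors and targets, degradation genes. The column of WT 3 is red for most chaperones and darkest for Hspa5, Xbp1 and Chac1, the column of WT 2 is pale or blue for the chaperones, and the SAKI columns are mostly pale blue, with darker cells for Xbp1, Asns and Chac1.

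Variation among WT mice was greater than among SAKI mice. The coefficient of variation was larger in WT mice for 29 of the 34 genes (85.3%, against 78.1% of all genes), with a median of 15.9% in WT and 5.35% in SAKI mice, where all genes had 18.8% and 9.33%. It was 70.7% against 1.10% for Hspa5 and 42.6% against 16.0% for Xbp1. WT 3 was the highest library for 18 of the 34 genes (27.1% of all genes), and for all 15 chaperones the highest library was WT 1 or WT 3 (44.1% of all genes). WT 2 was nearer to the SAKI mean than to the mean of the other WT mice in 24 of 34 genes (70.6%, against 63.0% of all genes), among them 12 of 15 chaperones.

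Without WT 2, edgeR called 7 members, all lower in SAKI mice (7 of 34), where 16.6% of all genes were called, 9.14% lower and 7.41% higher. Log2 fold changes among the chaperones were -0.52 for Hyou1 (adjusted p = 0.0303), -0.79 for Creld2 (adjusted p = 0.0136) and -0.82 for Manf (adjusted p = 0.0161). Among the factors and targets the values were -1.08 for Xbp1 (adjusted p = 0.0447) and -0.80 for Asns (adjusted p = 0.0169). Among the degradation genes they were -0.37 for Edem1 (adjusted p = 0.0398) and -0.68 for Vcp (adjusted p = 0.0113). Hspa5, at -0.72, was not called (adjusted p = 0.146), nor were the sensors. The groups then did not overlap for 20 members (18 lower and 2 higher), where 52.7% of all genes did not overlap, 26.3% lower and 26.4% higher. This choice of libraries was made with earlier results in view, leaves 2 WT mice, and is no independent test.

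**Figure D5:**
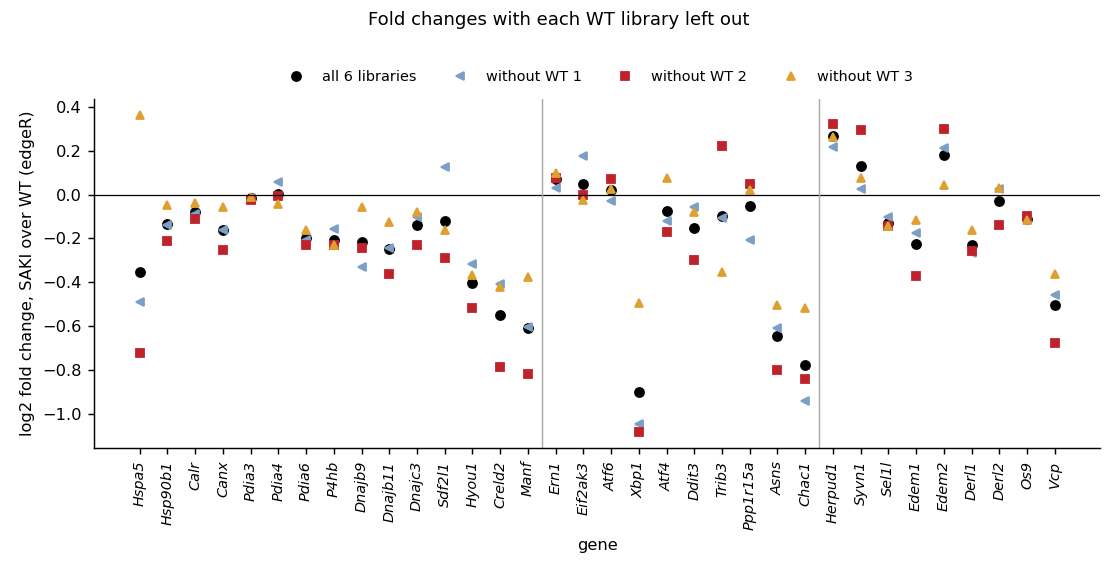
Log2 fold change of each gene with all 6 libraries and with each WT library left out in turn (edgeR). Leaving out WT 2 lowers most values of the chaperones, Asns and Vcp, and leaving out WT 3 brings most chaperones nearer to 0 and moves Hspa5 to 0.36.

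Other genes of the ER and of the stress response were read from 5 lists with 98 genes, of which 96 were tested and Ern2 and Fgf21 were not. Their median log2 fold change was -0.10, with 72 of 96 below 0 (75%, against 50.4% of all genes). With edgeR 0 were called. At an unadjusted p under 0.05 there were 16 with lower values (16.7%, against 9.99% of all genes) and 1 with higher values (1.04%, against 8.36%). The list nearest to Asns and Chac1, other ATF4 targets and amino acid genes, had a median of -0.32 over 21 tested genes. Of these, 17 were below 0, and 7 reached an unadjusted p under 0.05, all lower (33.3%, against 9.99% of all genes). Phgdh, the entry enzyme of serine synthesis, was at 121, 96.9 and 123 CPM in WT and 65.1, 80.3 and 66.9 CPM in SAKI mice (log2 fold change -0.68, adjusted p = 0.155, edgeR), and the groups did not overlap. The tRNA synthetases Aars and Nars were at -0.61 and -0.41 with separate groups. Among other kinases and factors (median -0.10 over 19), the ER membrane factor Creb3l1 was at 67.2, 22.3 and 58.5 CPM in WT and 14.7, 10.8 and 19.9 CPM in SAKI mice (log2 fold change -1.70, adjusted p = 0.170, edgeR). WT 2 was again the WT mouse nearest to the SAKI values. Nupr1 and Atf5, a pair of stress-induced factors, were at -0.83 and -0.59.

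Other folding enzymes had a median of -0.06 over 16 genes, with Fkbp2, a prolyl isomerase, at -0.47, Sil1, an exchange factor of BiP, at -0.26 and the oxidase Ero1l at 0.18. Genes of ER entry and N-glycan transfer had a median of -0.10 over 22, with the channel subunit Sec61a1 at -0.35, the transferase subunit Stt3b at -0.23 and Ssr1 at -0.25. Other degradation genes had a median of -0.10 over 18, of which 17 were below 0. Nploc4, a cofactor of Vcp, was at -0.33 with separate groups. Derl3 was the exception at 1.20, on values of 0.80, 1.23 and 0.33 CPM in WT and 1.89, 1.81 and 1.76 CPM in SAKI mice. None of these genes passed the test with 6 libraries. DESeq2 called 4 of the 96 (Fkbp2, Creb3l1, Nupr1 and Phgdh, all lower), where 2.71% of all genes were called lower. Without WT 2 edgeR called 19 of the 96, of which Derl3 was higher and 18 were lower. In that fit 16.6% of all genes were called, 9.14% lower and 7.41% higher.

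Markers of cell types and of tissue handling also differed between libraries. Of 14 adipocyte markers 13 had a log2 fold change below 0 (median -0.36). Their summed level was 29057, 38056 and 36819 CPM in WT mice 1, 2 and 3. In SAKI mice 1, 2 and 3 it was 29281, 26203 and 25960 CPM. WT 1 thus lay below SAKI 1, and WT 2 was highest. Fabp4 (7477 to 10671 CPM over the 6 mice) and Car3 (7154 to 10769 CPM) were the largest parts of each sum. Of 15 immediate early genes, which respond to handling of tissue, 14 were below 0 (median -0.70), and their sum was 629 to 1063 CPM in WT mice, highest in WT 3, and 504 to 624 CPM in SAKI mice. Of 10 macrophage markers 9 were above 0, with sums of 1166, 2204 and 971 CPM in WT mice 1, 2 and 3 and 2265 to 2718 CPM in SAKI mice. Of 10 markers of fibroblasts and progenitors 8 were above 0, with sums of 4534, 9925 and 3299 CPM in WT mice 1, 2 and 3 and 9004 to 10195 CPM in SAKI mice. Plasma cells, which are rich in ER, had 8 of 14 tested markers below 0, with sums of 935 to 1117 CPM in WT and 894 to 1152 CPM in SAKI mice. Most of each sum came from Ighm (421 to 613 CPM over the 6 mice) and Igkc (139 to 248 CPM), so the sums say little about the other markers. Their list shares Derl3 and Txndc5 with the ER lists, and Jchain was at 11.3 to 31.3 CPM in all 6 mice. No marker of these lists was called by edgeR and none was at 0 in all libraries, and their part in the values of the ER genes was not tested.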

How the data were processed

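Poly(A) RNA of IngWAT from 3 WT and 3 SAKI mice was sequenced, 1 library per mouse, and groups were taken from the sample labels. Per library the authors deposited raw counts of each gene, and for the 6 libraries together FPKM values, in which FPKM equals the count scaled to gene length and library total (spread of at most 0.0016% over 11738 genes). Tools named by the submitters, without roles, are StringTie 1.3.0, Bowtie2 2.2.6 and HISAT2 2.0.4, with the build GRCm38. Which tool counted the reads, on which annotation and with which strand setting is not given in the sources used here. 12 of the 34 genes share exon bases with another gene, and such reads may be split. The names of 27 genes, written as dates, were restored from gene IDs. The labels and the paper name different RNA extraction reagents.

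The counts were fitted in R 4.3.3 with edgeR 4.0.16, after filterByExpr (minimum count 10, total 15), TMM, a model of genotype, the quasi-likelihood test and Benjamini-Hochberg adjustment over 15400 genes, called at an adjusted p under 0.05. CPM values are TMM-scaled, intervals are 95% from the same fit, and the common biological coefficient of variation was 23.3%. An exact permutation test of 3 against 3 mice cannot go below p = 0.1 and was not used. Alternatives, 16 in all, were RLE or upper-quartile scaling, DESeq2 1.42.0, limma-voom (limma 3.58.1), no filter or a mean of at least 5 CPM, the replicate number as a block, each library left out in turn, and limma on log2(FPKM + 1), with and without a filter of FPKM 1 in 3 libraries, or log2(FPKM + 0.1). The steps were tested on simulated counts. No pairing of mice by replicate number is given in the labels. Deviations of same-numbered libraries from their group means correlated at 0.0363, 0.0423 and 0.0893, within the range of the other WT and SAKI pairs (-0.199 to 0.163). With 3 mice a group these values cannot decide whether the mice were paired.

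The text names all 34 genes, up to 3 genes of smallest p in each of 5 other ER lists, Slc35d3, and some markers. The genes that a marker sum mostly rests on are named for plasma cells and adipocytes only. Results for some single genes are not reported here. The members and lists, and the choice to leave out WT 2, were made with earlier results of these data known. There were 11 marker lists. Those of B cells, T and NK cells and neutrophils had every tested gene above 0 (10 of 10, 10 of 10 and 6 of 6). Endothelium had 6 of 10 below 0, skeletal muscle 6 of 7 and epithelium 3 of 3 tested. Muscle marker sums varied widely within both groups, at 5586, 503 and 782 CPM in WT mice 1, 2 and 3 and 2620, 380 and 1671 CPM in SAKI mice 1, 2 and 3. Their mean log2 levels were 6.81 in WT and 6.84 in SAKI mice. The epithelium sum was low, at 8.41, 3.31 and 20.9 CPM in WT mice 1, 2 and 3 and 4.76, 7.70 and 5.07 CPM in SAKI mice 1, 2 and 3.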

Additional observations from a re-analysis of the deposited data

How the results depend on the processing

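Of 543 values of single members under 16 alternatives, 9 passed the threshold, 7 without WT 2 and 2 with DESeq2. The number of members called ranged from 0 to 7 when each library was left out, with 7 without WT 2, and was 2 with DESeq2 and 0 otherwise. All genes called numbered 728 with DESeq2, 8 without a filter on low counts, 9 on FPKM values with a pseudocount of 1 or 0.1, and between 1 and 2598 with a library left out. Of the other ER genes 4 were called by DESeq2 and between 0 and 19 with a library left out. Members without overlap of the groups numbered between 10 and 20 with a library left out, given here with the share of all genes in brackets. They were 20 without WT 2 (52.7%), 14 without SAKI 2 (32.2%) and 13 without WT 1 (35.8%). Without SAKI 1 they were 11 (34.3%), without SAKI 3 also 11 (32.8%), and without WT 3 they were 10 (31.6%). The medians of the 3 roles stayed below 0 under every alternative. With the replicate number as a block, 0 members and 1 gene were called and the medians were -0.15 for chaperones, -0.06 for sensors and targets and -0.11 for degradation genes.

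The sign of the log2 fold change turned under some alternative in 10 members, of which 9 lay within 0.2 of 0. Pdia4 was at -0.0075 with RLE scaling or DESeq2 and -0.0011 without a filter. Pdia3 was at 0.021 with upper-quartile scaling, 0.0081 when genes needed a mean of 5 CPM, and 0.0046 on FPKM with a pseudocount of 1, with or without a filter, and 0.0047 with 0.1. Derl2 was at 0.013 with upper-quartile scaling and 0.00060 on FPKM with a pseudocount of 0.1. With each library left out in turn, values ran from -0.72 to 0.36 for Hspa5 (0.36 without WT 3), -0.044 to 0.056 for Pdia4, -0.29 to 0.13 for Sdf2l1, -0.027 to 0.18 for Eif2ak3, -0.029 to 0.071 for Atf6, -0.17 to 0.073 for Atf4, -0.35 to 0.22 for Trib3, -0.21 to 0.082 for Ppp1r15a and -0.14 to 0.029 for Derl2. The cause was not tested. Trib3 has no value under the filter of 5 CPM. With 3 mice a group and a WT spread of this size, differences of the size seen in most members could not be told from the variation among mice. A fit without 1 library rests on 2 mice in that group.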
